A study of Mus musculus with 140 samples.

Results

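The 5 genes described here, Zfp407, Zfp521, Zfp638, Zfp423 and Zfp536, are long mouse genes that each encode a zinc finger protein. No other protein-coding gene lies within 10 kb of any of them. They were examined for silencers, DNA elements that lower transcription, mapped in mouse embryonic stem cells (mESCs) and mouse embryonic fibroblasts (MEFs). Every interval of either silencer list that overlapped a gene's body plus 10 kb on each side (its territory) by at least 1 bp was counted as a member. This gave 138 of 204761 listed intervals, with 70 of 115165 in the mESC list and 68 of 89596 in the MEF list. The genes were chosen by their interval counts in these lists, which were already known, so counts and densities below are descriptions and carry no test.

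The study used Ss-STARR-seq, in which sheared mouse genomic DNA is cloned beside a reporter driven by a constitutive promoter, named hPGK in the labels, and pieces that lower reporter RNA relative to the plasmid input are sought. The labels describe 56 reporter RNA libraries from mESCs grown in N2B27 medium with 2i and LIF, 64 from MEFs grown in DMEM with serum, and 20 libraries of the input plasmid. By their titles, the mESC libraries fall into 3 numbered output sets and the MEF libraries into 4. The titles do not say whether a set is a biological replicate. The labels give the groups by cell type and medium and name no other treatment, genotype or strain. The result analysed is 1 list per cell type, with a position for each interval and a fold, which is the authors' own ratio, read here as linear. There are therefore no replicate values, every p below describes these lists alone, and the depth behind an interval is unknown. The lowest fold in each list was 2.00. An interval found in 1 list only has no value in the other, and may lie just under that fold there. Cell identity could not be checked against marker genes, because the lists hold no expression values. A piece is read on a plasmid, away from its gene, so an interval inside a gene says nothing of that gene's own transcript.

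C2H2 zinc fingers are small zinc-binding folds that read DNA, and proteins with many of them act as repressors, activators or scaffolds for other factors. ZFP423 and its close relative ZFP521 bind the early B cell factors (EBF). ZFP423 also works with SMAD proteins in bone morphogenetic protein signalling and commits cells to the fat lineage, which ZFP521 opposes. ZFP638, in humans ZNF638 or NP220, binds cytidine-rich DNA, recruits the HUSH complex to silence unintegrated retroviral DNA and acts with C/EBP factors in fat cell differentiation. ZFP407 supports glucose uptake and PPARG target genes in fat cells, and ZFP536 restrains neuronal differentiation by acting on retinoic acid receptor signalling. MEFs are mesenchymal cells that can be turned into fat cells, whereas mESCs are pluripotent.

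Some of the intervals that the results turn on are given first as sequence, from the GRCm38.p6 reference, plus strand, 5′ to 3′. For Zfp638, the annotated part of the mESC-only interval with the highest fold is shown (chr6:83874168-83874468, fold 7.50), because it is copied sequence. It is the 90 bases at chr6:83874379-83874468 that lie in the processed pseudogene Gm5138.
Zfp638 mESC only, Gm5138 part: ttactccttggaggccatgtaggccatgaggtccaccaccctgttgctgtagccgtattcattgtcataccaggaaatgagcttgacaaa

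For Zfp423, the single place listed in both cell types is shown (the central 300 bases of the mESC interval chr8:87941247-87941620), with the CACGTG letters of a MYC-type E-box in capitals, beside the mESC interval with the highest fold, close to a transcription start site (chr8:87953519-87953569).
Zfp423 in both lists: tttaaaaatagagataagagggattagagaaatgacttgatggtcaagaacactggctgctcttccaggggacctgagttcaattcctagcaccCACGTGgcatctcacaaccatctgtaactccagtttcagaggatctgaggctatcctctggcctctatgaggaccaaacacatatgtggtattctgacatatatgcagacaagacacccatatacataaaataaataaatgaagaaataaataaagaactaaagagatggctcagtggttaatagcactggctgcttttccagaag
Zfp423 mESC only: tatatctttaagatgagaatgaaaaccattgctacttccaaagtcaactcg

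For Zfp536, 2 intervals are shown. One lies in intron 2 and has the higher mESC fold of the places listed in both cell types (central 300 bases of chr7:37683851-37684201, with GGAATG, the TEAD letters, in capitals). The other is the MEF-only interval with the highest fold and spans the gene's annotated 5′ end (central 300 bases of chr7:37773601-37773951).
Zfp536 in both lists: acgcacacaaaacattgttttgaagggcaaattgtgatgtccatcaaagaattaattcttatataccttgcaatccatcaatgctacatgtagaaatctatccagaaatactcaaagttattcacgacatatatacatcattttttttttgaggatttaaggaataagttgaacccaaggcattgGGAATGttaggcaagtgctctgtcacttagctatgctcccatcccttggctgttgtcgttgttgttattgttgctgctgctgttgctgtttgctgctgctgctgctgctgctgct
Zfp536 MEF only: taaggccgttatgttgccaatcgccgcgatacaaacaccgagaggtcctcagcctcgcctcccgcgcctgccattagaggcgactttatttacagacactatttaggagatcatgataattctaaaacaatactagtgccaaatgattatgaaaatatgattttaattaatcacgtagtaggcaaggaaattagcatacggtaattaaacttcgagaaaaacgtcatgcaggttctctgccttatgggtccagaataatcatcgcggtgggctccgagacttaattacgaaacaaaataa

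Coordinates are those of the lists (mm10), with gene models from GENCODE M21, and a start may be off by 1 bp. Interval lengths are end minus start. Zfp407 (ENSMUSG00000048410.17) lies at chr18:84128027-84589725 on the minus strand, and Zfp521 (ENSMUSG00000024420.9) at chr18:13687013-13972787, also minus. Zfp638 (ENSMUSG00000030016.14) lies at chr6:83867109-83989550 on the plus strand. Zfp423 (ENSMUSG00000045333.15) occupies chr8:87661810-87959595 and Zfp536 (ENSMUSG00000043456.16) chr7:37472135-37773641, both on the minus strand. The bodies measure 462 kb for Zfp407, 302 kb for Zfp536, 298 kb for Zfp423, 286 kb for Zfp521 and 122 kb for Zfp638.

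The intervals were unevenly spread over the 5 genes. Zfp407 held 18 mESC and 27 MEF intervals, Zfp521 held 19 and 16, and Zfp638 held 21 and 12. Zfp423 held 7 in each list, and Zfp536 held 5 mESC and 6 MEF intervals. Among 365 genes named Zfp and a number, the first 3 ranked 1, 2 and 3 by their total, whereas Zfp423 ranked 18 and Zfp536 ranked 30, although by territory length Zfp536 and Zfp423 ranked 3 and 4.

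Per length, the order changed. Zfp638 carried 147 mESC intervals per Mb (exact Poisson 95% interval 91.3 to 225) and 84.2 MEF intervals per Mb (43.5 to 147). Zfp521 carried 62.1 (37.4 to 97.0) and 52.3 (29.9 to 85.0) per Mb in the mESC and MEF lists. These intervals cover counting error only. Zfp407 carried 37.4 mESC (22.1 to 59.1) and 56.1 MEF intervals per Mb (36.9 to 81.6). Zfp423 carried 22.0 per Mb in both lists (8.86 to 45.4), and Zfp536 carried 15.6 mESC (5.05 to 36.3) and 18.7 MEF intervals per Mb (6.85 to 40.6). In both lists the Poisson intervals of neighbours in the order overlapped. The median over all 21938 protein-coding genes was 40.6 mESC and 31.3 MEF intervals per Mb, and over the 3185 genes with a territory of at least 100 kb it was 46.5 and 35.9. Zfp638 was denser than 99.6% of those long genes in the mESC list and 96.5% in the MEF list. Zfp536 was denser than 8.45% in the mESC list and 18.8% in the MEF list. Zfp423 was denser than 15.2% and 23.5% of them in the mESC and MEF lists.

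**Figure D1:**
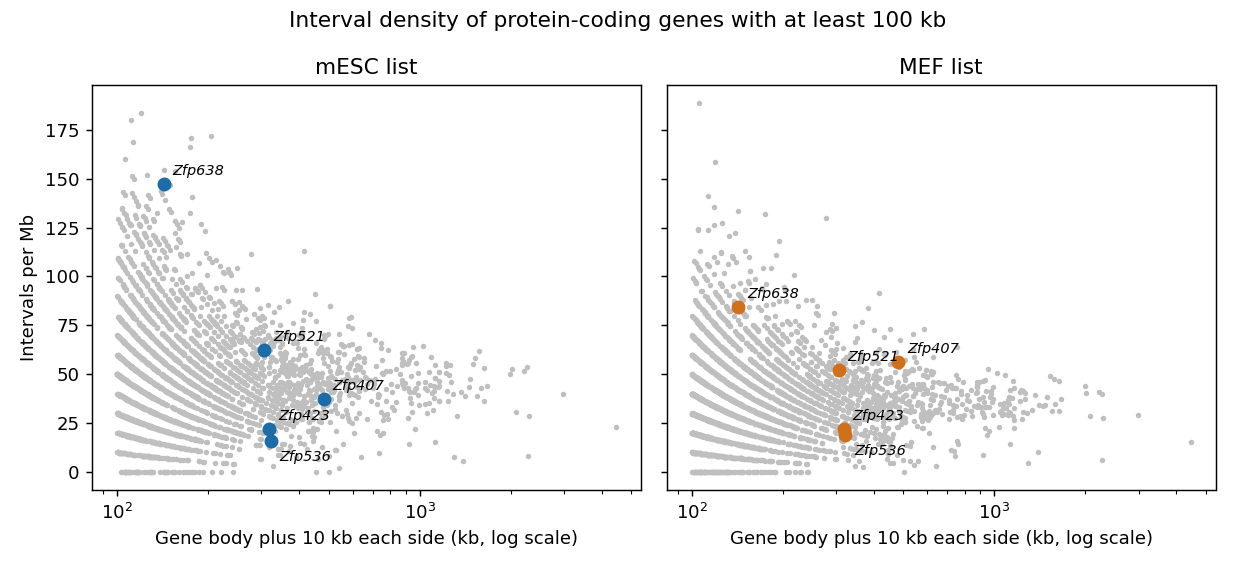
Intervals per Mb (vertical axis) against territory length (kb, log axis) for protein-coding genes with a territory of at least 100 kb, mESC list on the left and MEF list on the right. Grey points are other genes and coloured points the 5 zinc finger genes. Zfp638, at 147 and 84.2 per Mb, sits near the top of both panels, and Zfp536, at 15.6 and 18.7 per Mb, near the bottom.

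Zfp638 was the only one of the 5 whose intervals lay mostly in repeats in both lists. On average 57.0% of the bases of its mESC intervals and 54.1% of its MEF intervals were marked as repeats in the reference, against 40.9% over the whole mESC list and 38.5% over the whole MEF list. Zfp407 averaged 23.0% and 22.0%, Zfp521 23.1% and 27.7%, and Zfp536 18.0% and 23.2% in the mESC and MEF lists. Zfp423 differed between the lists, with 22.7% in 7 mESC intervals and 55.1% in 7 MEF intervals. Of the 21 mESC intervals of Zfp638, 3 were repeat over their whole length and 1 held no repeat base. The longest stretch free of intervals of either list was itself 35.2% repeat at Zfp638, against 10.9% to 17.2% at the other genes. The repeat content of the whole territories was not measured. Reads from repeats can belong to several places in the genome, and their part in these counts was not tested.

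**Figure D2:**
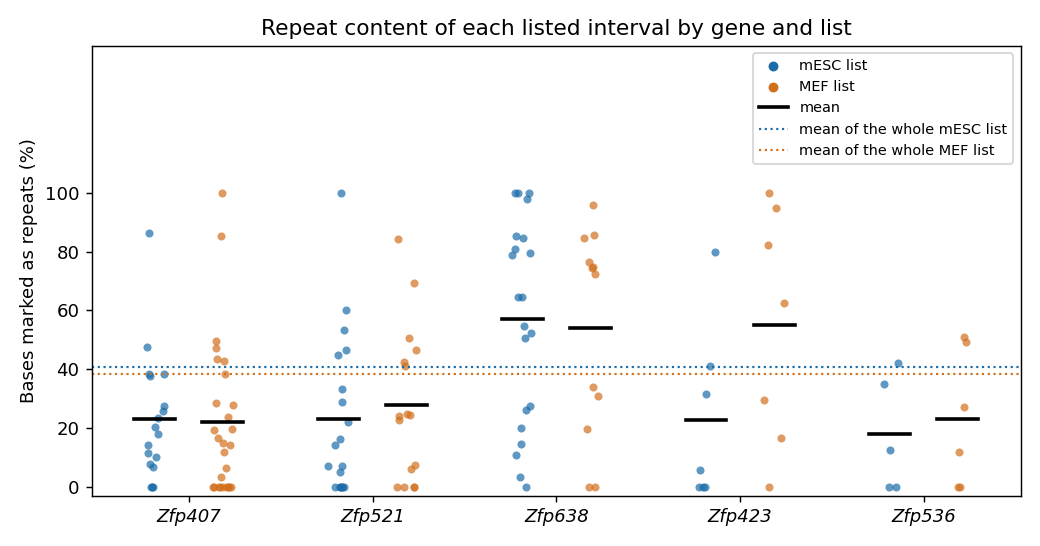
Share of bases marked as repeats (%) in each interval, by gene, mESC list left of MEF list. Bars are means, and dotted lines the means of the whole lists, 40.9% for mESCs and 38.5% for MEFs. The bars of Zfp638 lie above both lines, and those of Zfp407, Zfp521 and Zfp536 below them.

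The mESC-only interval with the highest fold at Zfp638, 7.50, lay 7.21 kb downstream of the gene's 5′ end and ran into Gm5138 (chr6:83874379-83875380, minus strand). Against GENCODE M21 transcripts, 270 of its bases aligned to the Gapdh transcript, which encodes a glycolytic enzyme, at 98.9% identity. Transcripts of at least 202 genes and pseudogenes matched it. Its placement at Zfp638 is therefore uncertain, because near-identical copies exist elsewhere. The MEF-only interval with the highest fold, 6.81, lay 6.47 kb upstream of the 5′ end, was 96.0% repeat and matched transcripts of at least 432 genes. The search capped the transcripts returned per interval, so both gene counts are lower bounds.

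Zfp638 has 22 annotated transcripts, and its principal transcript starts far inside the gene body, with the first intron beginning 47.4 kb from the 5′ end. Of the intervals in the body, 7 mESC and 4 MEF intervals lay 5′ of that intron, within introns of longer transcripts. Another 4 mESC and 3 MEF intervals lay in the 10 kb upstream of the gene. Intron 3 of the principal transcript, 6.23 kb long, held 3 mESC intervals and 1 MEF interval. One mESC interval (chr6:83930101-83930501, fold 2.27) had its midpoint in an exon, outside annotated coding sequence. The 3′ part was sparse, with 26.9 kb free of intervals of either list between 78.8 and 106 kb from the 5′ end. Of 1213 genes with a territory within 20% of that length, 81.3% had a longer empty stretch.

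At Zfp407 the MEF list was the longer one, with 20 MEF-only and 11 mESC-only intervals beside 7 places in both lists. Intron 3, 120 kb long, held 9 mESC and 10 MEF intervals, and intron 4, 77.7 kb long, held 2 and 6. Intron 1, 26.4 kb long, held 0 mESC and 3 MEF intervals. One of these MEF intervals (chr18:84577001-84577051, 50 bp, fold 12.7) had the highest fold of all 138 and was repeat over its whole length. The next highest MEF fold at the gene was 3.99. That interval was part of a chain of 4 MEF-only intervals, each separated from the next by 50 bp, that spanned 792 bp of intron 3 (chr18:84531309-84532101) with folds of 2.60 to 3.99. With intervals at most 100 bp apart merged, the gene held 24 MEF and 17 mESC intervals, again as a description of counts that chose it.

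The highest mESC folds at Zfp407 were 4.90 (chr18:84462451-84462751), 4.23 (chr18:84504901-84505051) and 3.48 (chr18:84298386-84298436), and none of these 3 overlapped a MEF interval. The 7 places in both lists ran from 55.3 to 292 kb from the 5′ end. Their folds, mESC first, were 2.98 and 2.99 nearest the 5′ end, 3.12 and 3.69 further into intron 3, and 2.14 and 2.16 at the longest (chr18:84424864-84425551, 687 bp in the mESC list). The mESC share of Zfp407 was 40.0% of 45 intervals (exact 95% interval 25.7 to 55.7), below the 56.2% that mESC intervals made up of both lists together.

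A two-sided exact binomial test of the mESC share, with Benjamini-Hochberg adjustment over the 3549 protein-coding genes with at least 10 intervals, called 0 of these genes, or 0% with a higher mESC share and 0% with a lower one. Of all those genes, 30 had an unadjusted p under 0.05. The 5 genes were thus not called, but since their interval counts chose them, their shares are given as a description and nothing is read from that count. Besides Zfp407, the shares were 54.3% for Zfp521 (36.6 to 71.2), 63.6% for Zfp638 (45.1 to 79.6), 50% for Zfp423 (23.0 to 77.0) and 45.5% for Zfp536 (16.7 to 76.6). The confidence intervals of Zfp423 and Zfp536 are wide, since these genes hold 14 and 11 intervals. A place in both lists counts once in each, which draws a share toward equal counts. The test and the confidence intervals treat such counts as independent, which they are not. With list-only intervals, 68 of 1665 tested genes had an unadjusted p under 0.05 in the same binomial test, and 0 were called.

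**Figure D3:**
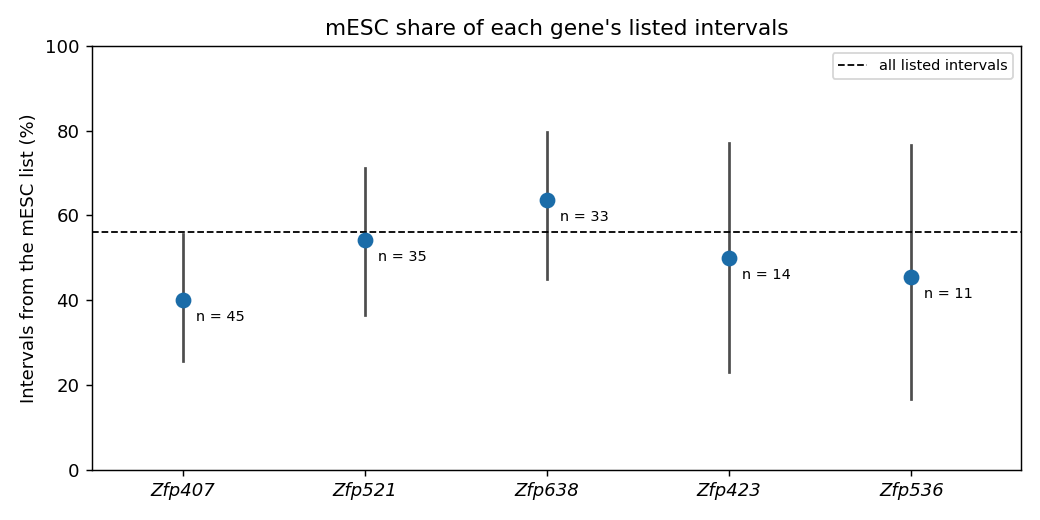
Share of each gene's listed intervals that came from the mESC list (%), with exact binomial 95% intervals and the number of intervals. The dashed line is the share over all listed intervals, 56.2%. The share of Zfp407, 40.0%, is the lowest of the 5, as a description of counts that chose the gene. No test is read from an interval and the line.

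Intervals listed in both cell types made up 24 of the 70 mESC intervals (34.3%, 23.3 to 46.6) and 24 of the 68 MEF intervals (35.3%, 24.1 to 47.8). Over the whole lists, 36.6% of mESC and 47.3% of MEF intervals were shared. Zfp407 shared 7 of 18 mESC intervals (38.9%, 17.3 to 64.3) and 7 of 27 MEF intervals (25.9%, 11.1 to 46.3). Its exact binomial p for the MEF intervals was 0.0326 unadjusted and 0.694 after adjustment over 1043 genes. That test takes intervals as independent, although 4 of the MEF-only intervals form 1 chain. Merging close intervals was not tried for it. Zfp521 shared 8 of 19 mESC and 8 of 16 MEF intervals (42.1% and 50%), and Zfp638 shared 6 of 21 and 6 of 12 (28.6% and 50%). Zfp423 shared 1 of 7 in each list, and Zfp536 shared 2 of 5 mESC and 2 of 6 MEF intervals, too few for the per-gene test. Of the 3 genes tested, 0 passed in either list. Over all genes 0% of 1594 passed for mESC intervals and 0% of 1043 for MEF intervals, with 82 and 64 genes at an unadjusted p under 0.05.

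The 24 shared places matched closely in position. The median distance between the mESC start and the MEF start was 28.5 bp, and 2 pairs had identical coordinates, chr18:13818601-13818951 in Zfp521 and chr7:37696201-37696251 in Zfp536. The Zfp521 pair had the largest fold in mESCs among shared places of the 5 genes, 4.69, with 2.36 in MEFs. At Zfp638 the shared places included an mESC fold of 4.18 beside a MEF fold of 2.62 in intron 1, and ended with 2.04 and 2.07 in the downstream flank. Folds of both lists are given side by side only, since the lists were made separately and a ratio pooled over libraries has no error.

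**Figure D4:**
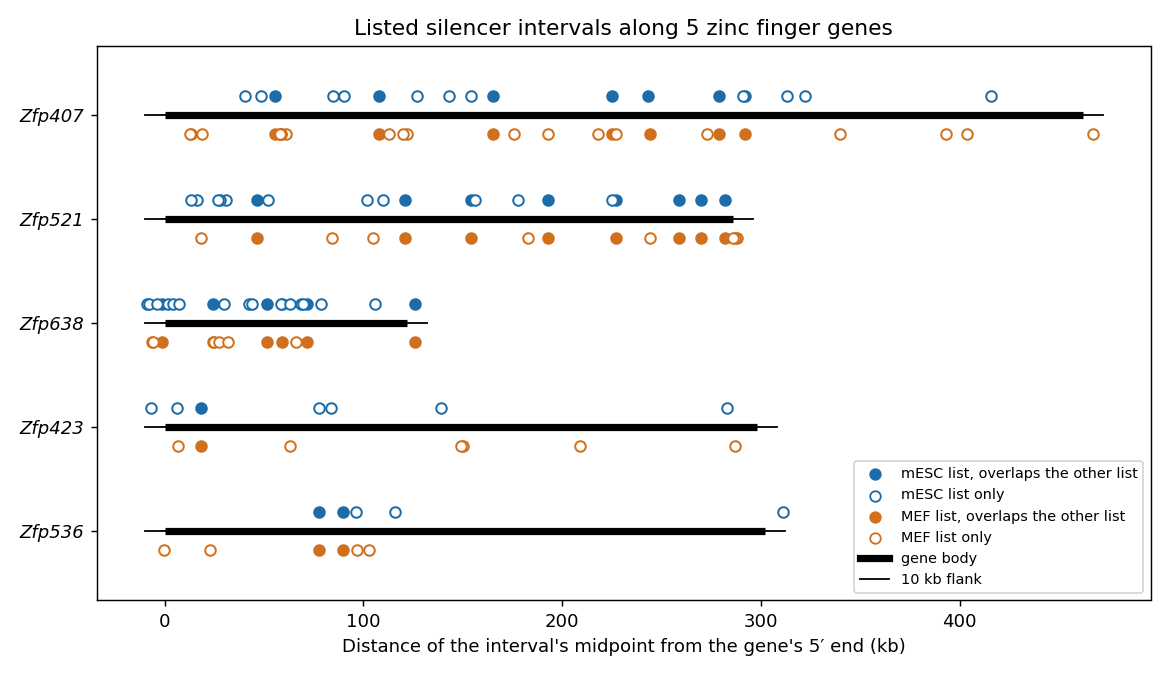
Position of each interval's midpoint relative to the 5′ end of its gene (kb), with mESC intervals above and MEF intervals below each gene body. Filled points overlap the other list and open points do not. Zfp536 has no interval of either list between 116 and 310 kb, and Zfp638 is crowded in both lists.

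Zfp521 was the gene with the most even counts among those with many intervals. Intron 2, 32.2 kb long, held 5 mESC intervals and 1 MEF interval, whereas introns 3, 5 and 7 held 5, 5 and 3 mESC and 4, 4 and 3 MEF intervals. The highest mESC folds were 5.12 (chr18:13816351-13816451) and 4.69 at the pair with identical coordinates, and the highest MEF fold was 3.19 (chr18:13867183-13867426). At the 3′ end, 3 MEF-only intervals stood close together. One had its midpoint in an exon outside coding sequence (chr18:13687101-13687201, fold 2.08), and the other two lay in the downstream flank with folds of 2.16 and 2.15. The longest stretch without an interval of either list was 32.5 kb, shorter than in 91.2% of 399 genes of like length.

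Zfp423, the close relative of Zfp521, was sparse. Per Mb, it carried 22.0 intervals in each list against 62.1 mESC and 52.3 MEF intervals per Mb at Zfp521. With 50 kb on each side the gap was smaller. Zfp423 then carried 37.7 mESC and 27.7 MEF intervals per Mb, and Zfp521 carried 54.4 and 46.7. The single shared place of Zfp423 lay in intron 1, 18.2 kb from the 5′ end. There the mESC fold was 2.63 and the MEF fold 3.06, and the place was 79.9% repeat in the mESC list. The highest fold, 5.12, belonged to an mESC-only interval of 50 bp in intron 1, 0.318 kb from the start site of one of the gene's 7 transcripts. MEF-only intervals lay 0.789 kb (chr8:87896499-87896549, fold 2.12) and 0.807 kb (chr8:87952980-87953130, fold 2.13) from a start site. The last of these is 94.7% repeat. In the MEF list 4 of 7 intervals were 50 bp long, against 16.3% of the whole MEF list. A stretch of 74.0 kb held no interval of either list, and 20.7% of 376 genes of like length had a longer one.

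Zfp536 had the fewest intervals and the narrowest placing. Its 4 mESC intervals in the body all lay in intron 2, between 77.4 and 116 kb from the 5′ end, and that intron also held 4 of the 6 MEF intervals. Introns 3 and 4, 79.7 and 74.0 kb long, held none of either list. The stretch without an interval measured 194 kb. It was 17.2% repeat and held 0% unknown bases in the reference. Of 371 genes with a territory within 20% of that of Zfp536, 1 had a longer empty stretch (0.270%). This measure was chosen after the positions were seen and carries no test. No fold at the gene exceeded 2.49, the value of the MEF-only interval that spans the 5′ end. The shared place at chr7:37683851-37684201 had an mESC fold of 2.38 and a MEF fold of 2.18.

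Most intervals of the 5 genes were intronic. By midpoint, 18 of 18 mESC and 26 of 27 MEF intervals of Zfp407 were in introns, as were 19 of 19 and 13 of 16 at Zfp521, 15 of 21 and 8 of 12 at Zfp638, 6 of 7 and 7 of 7 at Zfp423, and 4 of 5 and 5 of 6 at Zfp536. The zinc fingers are encoded by coding exons, and 0 of the 138 intervals had its midpoint in a coding exon. Coding exons were rare sites throughout, with 0.779% of mESC and 0.811% of MEF intervals in the bodies of long genes (territory of at least 100 kb), where 96.7% of the intervals of each list were intronic. The 5 genes, with 98.4% of 63 mESC and 98.3% of 60 MEF body intervals in introns, lay close to that. Within 1 kb of an annotated start site lay 2 mESC intervals, 1 each at Zfp407 and Zfp423, and 3 MEF intervals, 2 at Zfp423 and 1 at Zfp536. These are 2.86% and 4.41% of the intervals of the 5 genes, against 3.17% of the whole mESC list and 3.01% of the whole MEF list. The RefSeq promoter table, which matched Zfp638, Zfp423 and Zfp536, holds 300 bases around each start. No listed interval overlapped any of these promoters. The nearest was 2868 bp from the Zfp638 promoter, an mESC interval with a fold of 2.27.

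The folds lay close to those of the lists. The 70 mESC intervals ranged from 2.01 to 7.50 with a median of 2.44, against a median of 2.42 over the mESC list. The 68 MEF intervals ranged from 2.00 to 12.7 with a median of 2.31, against 2.36 over the MEF list. A fold above 4 was held by 9 mESC intervals (12.9%, against 7.99% of the list) and by 2 MEF intervals (2.94%, against 5.92%). By gene, the median was highest for Zfp638 in mESCs at 2.66, and lay between 2.20 and 2.47 for the other gene and list combinations. A fold is not a continuous reading here. The mESC list holds 3594 different values for its intervals and the MEF list 3077, and 69 of the 70 mESC and 67 of the 68 MEF intervals have exactly the fold of another interval in their list. The highest mESC fold of Zfp423 and that of Zfp521 are the same value, held by 122 intervals of the list, and 7 intervals hold the fold of 12.7 at Zfp407.

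**Figure D5:**
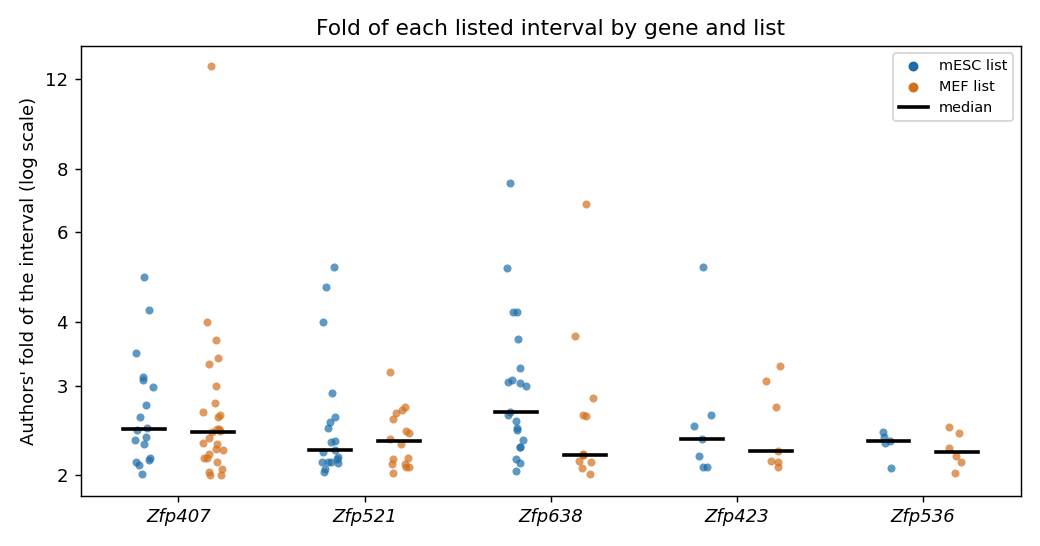
Authors' fold of every interval (log axis) by gene, mESC list left of MEF list, with medians as bars. The medians lie between 2.20 and 2.66, and single intervals reach 12.7 at Zfp407 in the MEF list and 7.50 at Zfp638 in the mESC list.

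The 6 motifs searched, in the whole intervals and on both strands, were 3 tied to these proteins (cytidine-rich DNA, the EBF site and the ZFP423 palindrome) and those of AP-1, TEAD and MYC-type E-box factors, which act in many cell types. The letters CCCCC, standing for cytidine-rich DNA such as ZFP638 binds, were in 16 of 70 mESC intervals (22.9%) and 6 of 68 MEF intervals (8.82%), against 23.5% of the mESC list and 19.6% of the MEF list. Zfp638 itself, which has 21 of the 70 mESC and 12 of the 68 MEF intervals, held 8 of the 16 and 3 of the 6. The AP-1 letters TGANTCA were in 6 mESC and 3 MEF intervals (8.57% and 4.41%), against 6.16% and 6.77% of the lists. The TEAD letters GGAATG were in 5 and 7 (7.14% and 10.3%, against 12.2% and 11.9%), and the E-box letters CACGTG in 3 and 5 (4.29% and 7.35%, against 1.90% and 2.20%). The EBF site was in 0 of 138 intervals, against 0.293% of the mESC list and 0.268% of the MEF list, and the ZFP423 palindrome was in 1 interval of each list, neither at these genes. A match is a string of letters and not a bound site. Longer intervals have more room for a match, and the shares were not adjusted for length. The median length was 250 bp for the mESC and 150 bp for the MEF intervals of these genes, against 200 bp in each whole list.

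The partners of these proteins were read the same way. The list of 17 genes holds the EBF factors, fat-lineage and SMAD factors, Rara, Runx2, the corepressor gene Hdac3, and the HUSH complex genes with their cofactors. It carried 101 mESC and 79 MEF intervals, with a median of 44.3 mESC and 35.4 MEF intervals per Mb. Of these genes 6 could be tested for the mESC share by the exact binomial test, and 0 passed, with 0 at an unadjusted p under 0.05. Ebf1, whose product ZFP423 and ZFP521 bind, held the most, 22 mESC and 18 MEF intervals. Runx2, a bone lineage factor, held 15 and 11, and Pphln1, a HUSH subunit, held 10 and 9. The other 360 Zfp genes carried 995 mESC and 703 MEF intervals, a mESC share of 58.6%, with a median of 50.4 mESC and 34.8 MEF intervals per Mb. Of these, 35 were tested in the same way and 0 passed, again with 0 at an unadjusted p under 0.05. The median territory of the 360 genes was 37.3 kb, against 318 kb for the 5 genes. The 21 of them with at least 100 kb had a median of 56.2 mESC and 34.9 MEF intervals per Mb. The median over the 5 genes was 37.4 mESC and 52.3 MEF intervals per Mb.

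By the distance between pairs of densities, among genes with a territory within 20% in length, the genes most like Zfp638 were Atad2b (147 mESC and 93.3 MEF intervals per Mb), Nsd1 and Dennd2a, out of 1213. Those most like Zfp407 were Dnm3 (40.7 and 50.4 per Mb), Cacnb2 and Dnah7c, out of 223. Zfp521 was closest to Col24a1 (60.8 and 53.7 per Mb), Stau2 and Ranbp17. Zfp423 was closest to Pknox2, Dscaml1 and Etv6, and Zfp536 to Itga9 (15.9 and 19.1 per Mb), Celf4 and Ralgps1.

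The edges of the territories cut between intervals at short distances in places. The nearest interval outside was 369 bp from the edge at Zfp423 in mESCs, with a fold of 2.52, and 546 bp at Zfp638 in MEFs, with a fold of 2.51. At Zfp407 both lists had an interval 726 bp past the upper edge, where the mESC fold was 2.15 and the MEF fold 2.18. The nearest inside were 906 bp from the edge at Zfp536 and 1042 bp at Zfp638, both from the mESC list, with folds of 2.31 and 3.05.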

How the data were processed

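The analysis used 2 lists of silencer intervals, made from 56 mESC reporter, 64 MEF reporter and 20 input libraries, 140 in all. Each interval's fold is given as the authors deposited it, under a header that reads only FC. The fold was read as a linear ratio, which the header does not state. How it was computed, from which libraries and with which caller, is not given in the sources used here. Bowtie2 and SAMtools are named, per the submitters' processing notes, without versions. Those notes name the build hg38 and the design text mm10. No interval passed an mm10 chromosome end (0 in each list), and mm10 was used. The cell source given for the input libraries is mESCs, per the labels.

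Intervals with 1 bp or more in common with the other list were counted as shared. Shares per gene were set against the share over the lists with two-sided exact binomial tests (scipy 1.17.1), adjusted by Benjamini-Hochberg over all protein-coding genes with at least 10 intervals, at 0.05. Intervals for shares are exact (Clopper-Pearson) and those for densities exact Poisson, at 95%. The test was tried on simulated data with known changes. Repeats were the lower-case bases of GRCm38.p6, and transcripts were matched with blastn 2.17.0. Other work used Python 3.11.15, pandas 2.3.3, pysam 0.24.0 and samtools 1.23.1. Named intervals were the 3 with the highest fold per gene and list, those within 1 kb of a start site or in an exon, and the nearest to each territory edge. The longest shared interval of Zfp407, its chain of MEF-only intervals and the pairs with identical coordinates were named after their values were seen. Named genes were the 3 nearest in density and the 3 partners with the most intervals. Sequences are RefSeq's. The sequence of 1 interval at Zfp638 is not reported here. The genes and lists were chosen with earlier results of these data known. The CRISPR experiments and other omics data of the series were not analysed here.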

Additional observations from a re-analysis of the deposited data

How the results depend on the processing

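The counts of genes called, 0 in each of the 3 tests, stayed at 0 under every alternative tried: the gene body alone, 50 kb on each side, intervals at or above the median fold, a minimum of 20 intervals, and, where they applied, list-only intervals, the midpoint in the territory and an overlap of at least 50% of both intervals. Keeping intervals longer than 50 bp gave 0 in the 3 tests, and merging intervals at most 100 bp apart, run for the mESC share, gave 0. Both were chosen after seeing the data. The density over the 5 genes, 44.6 mESC and 43.3 MEF intervals per Mb, was 22.9 and 20.4 at or above the median fold, a setting that keeps fewer intervals by construction. For intervals longer than 50 bp it was 36.3 and 32.5. The directions below describe counts that chose the genes, and the alternatives reuse those counts. For Zfp407 the mESC share lay below the share of the lists under all 8 alternatives. It was 41.5% with intervals at most 100 bp apart merged and 43.2% for intervals longer than 50 bp. The mESC share of Zfp638 stayed above that of the lists. The shared parts of Zfp407 in both lists and of Zfp638 in mESCs kept their side under all alternatives run. Other directions turned under some settings. The mESC share of Zfp521 was 57.6% with the gene body alone, that of Zfp423 was 57.7% with 50 kb on each side and 62.5% for intervals longer than 50 bp, and that of Zfp536 was 57.1% for intervals longer than 50 bp, all above the lists' share. At or above the median fold, Zfp521 had 28.6% of 7 mESC and 28.6% of 7 MEF intervals shared. The lists had 31.1% and 40.1% at that setting. Zfp638 then had 40.0% of 5 MEF intervals shared, level with the 40.1% of the MEF list. That Zfp638 share was 41.2% with 50 kb on each side (list 47.3%) and 45.5% for intervals longer than 50 bp (list 48.7%). The cause was not tested. No paired analysis was possible because the lists carry no values per library and no replicate numbers, and for the same reason no library could be left out. The depth behind each interval is unknown.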
